A study of Mus musculus with 4 samples.

Results

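The regions described here are stretches of open chromatin at the edges of protein-coding genes that were found in all 4 ATAC-seq libraries of mouse macrophages. Peaks of the 4 deposited lists that overlapped by 1 bp or more were merged, and a merged region was kept when it held a peak of every list and its midpoint lay 1 kb or less from the start or end of a protein-coding gene. The rule kept 4125 of 20540 merged regions (20.1%), and these lay at an edge of 4879 of 21887 protein-coding genes (22.3%). The regions were chosen by the positions of their peaks in these 4 libraries, so presence in every list and position at an edge are not results, and scores and widths of the same peaks are given as a description. The label was borne out by the files to this extent: among the 2736 regions at the edge of 1 gene of known strand, 2699 lay at its start.

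The cells were bone marrow-derived macrophages of C57BL/6 mice, grown for 5 days with 10% M-CSF, the growth factor of the lineage, and 50000 cells entered each library. They were wild type (WT) or Slc6a8-/y (KO), which lack the X-linked creatine transporter, and each genotype was untreated or given IL-4 at 10 ng/mL for 6 h. Each of the 4 groups (WT untreated, WT IL-4, KO untreated, KO IL-4) is 1 library, and the labels give no number of mice behind it. Differences between libraries therefore have no replicate error and no p-value, and no library difference can be told apart from a difference between conditions.

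In ATAC-seq the transposase Tn5 cuts accessible DNA, and reads pile up where nucleosomes are missing. The start of an active gene is usually such a place, because the transcription machinery keeps it clear. Starts rich in CpG, the promoter type of most genes that every cell uses, are open in most tissues, whereas genes of one cell type rely more on distal enhancers. A pair of genes that start close together and point away from each other, a divergent pair, can share one open stretch.

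The bases before 5 starts with a score near the top of every list are shown as examples of starts that carry GC boxes and CCAAT boxes. All sequences are from RefSeq, GRCm38.p6, run 5′ to 3′ on the gene's strand and end at the base before its start. Capitals mark matches, on either strand, to the GC box, the CCAAT box, the NRF1 motif or the TATA box. The sequences were chosen after their matches had been seen.
Leprot, chr4:101647533-101647782, plus strand: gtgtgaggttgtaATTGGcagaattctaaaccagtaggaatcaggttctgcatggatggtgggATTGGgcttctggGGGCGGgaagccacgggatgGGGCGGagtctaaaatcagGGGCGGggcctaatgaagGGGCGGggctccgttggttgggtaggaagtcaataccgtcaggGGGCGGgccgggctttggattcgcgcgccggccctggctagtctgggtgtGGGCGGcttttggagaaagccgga
Pja2, chr17:64331884-64332133, minus strand: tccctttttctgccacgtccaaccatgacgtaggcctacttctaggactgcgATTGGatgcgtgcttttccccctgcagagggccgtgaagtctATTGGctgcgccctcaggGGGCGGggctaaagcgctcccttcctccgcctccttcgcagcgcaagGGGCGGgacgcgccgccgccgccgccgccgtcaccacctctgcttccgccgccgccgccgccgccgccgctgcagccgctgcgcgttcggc
Camta1, chr4:151861769-151862018, minus strand: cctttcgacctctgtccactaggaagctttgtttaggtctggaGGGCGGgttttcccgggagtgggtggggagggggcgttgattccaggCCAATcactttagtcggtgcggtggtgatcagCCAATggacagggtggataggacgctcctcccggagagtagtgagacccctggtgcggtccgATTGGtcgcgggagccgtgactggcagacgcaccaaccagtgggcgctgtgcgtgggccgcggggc
Bcl10, chr3:145924012-145924261, plus strand: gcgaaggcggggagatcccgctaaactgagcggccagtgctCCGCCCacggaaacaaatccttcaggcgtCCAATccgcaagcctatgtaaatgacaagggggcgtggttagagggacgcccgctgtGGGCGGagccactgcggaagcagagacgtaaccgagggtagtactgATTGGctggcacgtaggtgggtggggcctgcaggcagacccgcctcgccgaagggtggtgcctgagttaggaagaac
Sp4, chr12:118301441-118301690, minus strand: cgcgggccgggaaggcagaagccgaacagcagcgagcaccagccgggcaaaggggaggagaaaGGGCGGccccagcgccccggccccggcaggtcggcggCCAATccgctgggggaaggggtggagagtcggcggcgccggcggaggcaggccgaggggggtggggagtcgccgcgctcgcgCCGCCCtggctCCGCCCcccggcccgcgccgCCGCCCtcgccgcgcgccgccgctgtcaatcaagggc

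The next 4 are the whole stretch between the starts of a divergent pair, read on the strand of the first gene named, and show the DNA that both starts share. Each was chosen for a GC box and a CCAAT box, and the one of Mrpl32 and Psma2 also holds an NRF1 match, the 10 bases in capitals in its middle.
Mrpl32 and Psma2, chr13:14613038-14613241, minus strand, 204 bp: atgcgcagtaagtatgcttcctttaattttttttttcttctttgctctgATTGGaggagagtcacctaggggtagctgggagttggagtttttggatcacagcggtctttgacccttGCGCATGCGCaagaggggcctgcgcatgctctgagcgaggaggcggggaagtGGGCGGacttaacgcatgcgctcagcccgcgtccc
Psmb9 and Tap1, chr17:34187331-34187555, minus strand, 225 bp: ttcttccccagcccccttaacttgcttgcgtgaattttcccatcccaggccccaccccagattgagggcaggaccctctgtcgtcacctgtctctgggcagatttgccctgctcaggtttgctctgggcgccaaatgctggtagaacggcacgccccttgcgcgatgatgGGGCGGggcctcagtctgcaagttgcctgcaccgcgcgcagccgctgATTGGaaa
Pcna and Cds2, chr2:132253181-132253337, minus strand, 157 bp: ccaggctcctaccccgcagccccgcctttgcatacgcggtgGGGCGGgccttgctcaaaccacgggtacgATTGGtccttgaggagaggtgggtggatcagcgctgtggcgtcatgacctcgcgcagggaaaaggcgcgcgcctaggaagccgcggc
Mrps12 and Sars2, chr7:28741822-28741956, minus strand, 135 bp: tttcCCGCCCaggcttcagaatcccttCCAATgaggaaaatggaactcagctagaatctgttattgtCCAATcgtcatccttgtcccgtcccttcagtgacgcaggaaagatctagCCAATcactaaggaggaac

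The last pair belongs to genes whose region ranked higher with IL-4 in both genotypes. The bases before Socs1 hold 1 CCAAT box and 2 GC boxes, and those before Cebpa hold a TATA box alone among the motifs searched.
Socs1, chr16:10785537-10785786, minus strand: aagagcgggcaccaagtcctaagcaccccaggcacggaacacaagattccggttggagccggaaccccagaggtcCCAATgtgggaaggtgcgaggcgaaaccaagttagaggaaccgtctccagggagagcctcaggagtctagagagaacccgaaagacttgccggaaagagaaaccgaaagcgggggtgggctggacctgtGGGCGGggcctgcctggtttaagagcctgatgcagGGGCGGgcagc
Cebpa, chr7:35119043-35119292, plus strand: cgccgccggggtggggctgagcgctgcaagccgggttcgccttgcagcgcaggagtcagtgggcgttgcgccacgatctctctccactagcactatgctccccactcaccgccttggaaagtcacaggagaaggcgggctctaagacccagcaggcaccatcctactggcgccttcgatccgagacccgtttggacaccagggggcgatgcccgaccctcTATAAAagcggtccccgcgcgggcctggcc

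The lists held 17339 peaks in untreated WT, 9930 in IL-4-treated WT, 13714 in untreated KO and 10443 in IL-4-treated KO, and how deeply each library was read is unknown. Peak number, score and width can all move with depth, and its part in the results was not tested. Of 12 macrophage marker genes, 11, 7, 9 and 6 had a peak within 1 kb of their span in the same order. Of 29 markers of other cell types, none had a peak in all 4 lists, and the few with any were Ms4a1, S100a8, Lck and Afp. No list had a peak at an edge of Slc6a8, so these regions give no check of the genotype labels. No list of regions with artificially high signal was used.

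The regions were centred on gene starts. Their midpoint lay a median of 91 bp from the nearest gene edge, and 3515 (85.2%) lay within 250 bp. Where 1 gene of known strand was at the edge, 98.6% (exact Clopper-Pearson 95% interval 98.1 to 99.0, which here and below covers counting error only) lay at its start rather than its end. The same share was 96.4% of edge regions found in 3 lists, 95.5% (93.8 to 96.8) of those in 2 lists and 89.6% (87.5 to 91.5) of those in 1 list. The more lists held an edge region, the more often it marked a start.

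Around the start, a peak covered the first base in 91.4% of the 2699 regions in untreated WT, 91.3% in IL-4-treated WT, 91.8% in untreated KO and 90.3% in IL-4-treated KO. The median peak ran from 316 bp before to 275 bp after the start in WT untreated. It ran from 342 bp before to 306 bp after in WT IL-4, from 343 to 309 bp in KO untreated and from 314 to 275 bp in KO IL-4. The median limits thus lay further out of the gene than into it in every list, and the outline was nearly the same in all 4. Far from the start, cover was greater inside the gene. At 700 bp it was 7.89%, 8.82%, 9.26% and 7.41% after the start in the same order of libraries, against 5.34%, 5.30%, 5.56% and 4.63% before it.

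**Figure D1:**
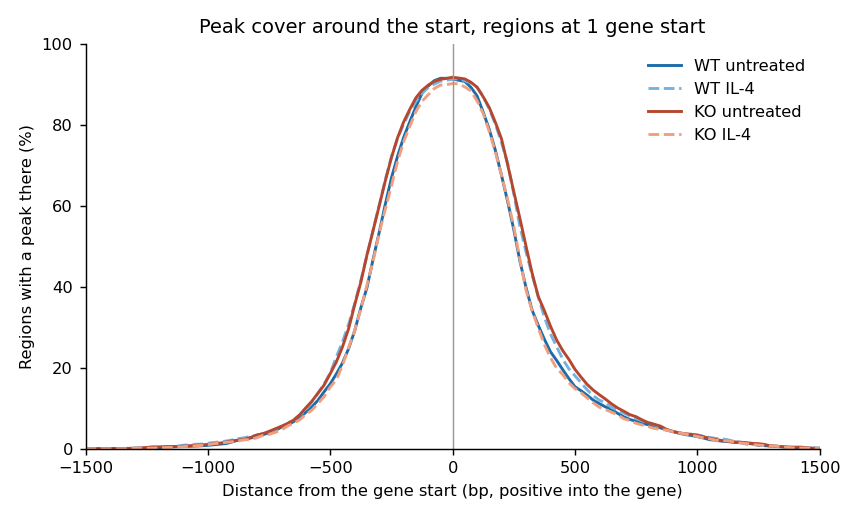
Share of the 2699 regions at 1 gene start (vertical axis, percent) with a peak at each distance from the start (horizontal axis, bp, positive into the gene), with 1 line per library. Cover reached 90.3% to 91.8% at the start and was 15.2% to 18.7% at 500 bp before it and 14.9% to 19.6% at 500 bp after it.

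The other classes were small. A region lay at the end of 1 gene in 37 cases, and these ranked low: the median rank among the 4125 regions, scaled so that 100 is the highest score, was 24.8 in untreated WT, 20.6 in IL-4-treated WT, 19.8 in untreated KO and 19.1 in IL-4-treated KO. For 576 regions at the edge of 1 gene, the promoter table gives no strand. An lncRNA lay within 1 kb of 523 regions (12.7%, interval 11.7 to 13.7). The regions shared by all 4 lists that lay further from any protein-coding gene edge, called distal here, numbered 2547. Of these, 232 (9.11%, interval 8.02 to 10.3) had an lncRNA within 1 kb. The distal set is not free of starts. A protein-coding transcript of the promoter table started within 1 kb of 379 distal regions (14.9%), against 3380 (81.9%) of the 4125 regions. Chromosome X held few: 83 of its 966 protein-coding genes (8.59%) had a region, and none of 256 on chromosome Y did, while the other chromosomes ranged from 17.6% on 14 to 27.7% on 8.

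A pair of regions sits just inside the 1 kb limit and another pair just outside. Zfp948, a zinc finger gene, lay at 1000 bp and Mink1, a kinase gene, at 997.5 bp. Colgalt1, a collagen galactosyltransferase gene, was outside at 1005.5 bp and Bahd1 at 1007 bp. The scores of Colgalt1 were 273, 79.3, 185 and 141 in the order WT untreated, WT IL-4, KO untreated and KO IL-4, which is no lower than those of many regions inside. Of all shared regions, 38 lay between 900 and 1000 bp and 19 between 1000 and 1100 bp.

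The score is the authors' value for each peak and ranks peaks within its own list. Its median over the regions was 217 in untreated WT, 118 in IL-4-treated WT, 171 in untreated KO and 122 in IL-4-treated KO. As a percentile within the list, that is a median of 83.9, 70.6, 79.5 and 71.6 in the same order. The longer a list was, the higher in it these regions stood. The distal shared regions had median percentiles of 72.4, 55.5, 65.0 and 57.7. The regions held 78.6%, 76.8%, 78.5% and 77.2% of the peaks with the highest 10% of scores in the 4 lists. Of all peaks in the lists they held 24.5%, 41.8%, 30.4% and 40.0%. A few were weak: the score was under 60, close to the lowest value of about 50 in each list, in 33, 277, 83 and 241 regions.

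Ranks among the 4125 regions were alike between libraries. Spearman's rho of the score ran from 0.72, between WT IL-4 and KO IL-4, to 0.81, between the untreated libraries, as a description over regions that share libraries. The rank of a region still varied: its range over the 4 lists had a median of 25.9 points, 535 regions stayed within 10 points and 343 spanned over 50. In all 4 lists, 197 regions were among the highest 10%, and 683 were in at least 1 list.

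The region with the highest lowest percentile was at Lars2, the mitochondrial leucyl-tRNA synthetase gene. Its scores were 915 in untreated WT, 859 in IL-4-treated WT, 811 in untreated KO and 650 in IL-4-treated KO. All 4 were at the very top of their lists, and the region (chr9:123461577-123462326) lay 723.5 bp from the end of the gene, not its start. Its peaks were narrow for such scores, at 668, 633, 538 and 693 bp, and whether the signal there is artificial was not tested.

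Zbtb20, a zinc finger repressor gene, came next. Its scores were 1101, 685, 877 and 655 in the same order, and its widths were 1492, 1255, 1241 and 1133 bp. Leprot, which shares its locus with the leptin receptor gene, had scores of 1058, 561, 774 and 634. Both were the highest or nearly the highest of the 4125 regions in every library. Pja2, a ubiquitin ligase gene, had scores of 996, 495, 679 and 515. Camta1, a calmodulin-binding transcription activator gene, had 909, 485, 872 and 526. Bcl10, an adaptor of NF-kB signalling, had 817, 495, 632 and 491, and Sp4, a GC-box-binding factor of the Sp family, had 870, 454, 683 and 505. With Leprot, these are the 5 starts whose sequence is shown above. Ppm1b, a phosphatase gene, and the shared edges of Cdca2 with Kctd9 and of Dcaf6 with Mpc2 complete the 10.

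Peaks of these regions were wider in WT IL-4 and KO untreated than in the other libraries. The median width, the bases under peaks in a region, was 621 bp in untreated WT, 671 bp in IL-4-treated WT, 676 bp in untreated KO and 610 bp in IL-4-treated KO. The order of the libraries by width is not their order by number of peaks or by score. In distal shared regions the medians were 535, 595, 576 and 534 bp, a similar order with narrower peaks.

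With IL-4 the width went opposite ways in the 2 genotypes. The median log2 ratio of IL-4 over untreated was +0.11 in WT and -0.14 in KO. Equally, KO over WT was +0.12 without IL-4 and -0.13 with it, which are the same 4 libraries read the other way. In WT 2636 regions were wider and 1479 narrower, and in KO 1363 were wider and 2755 narrower. A region was wider in WT and narrower in KO in 1732 cases (42.0%; 40.5 to 43.5), against 41.1% of all shared regions, and the reverse held in 461 (11.2%). The distal shared regions alone gave 39.8% and 12.5%.

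Other shared open chromatin moved the same ways. The distal shared regions had ratios of +0.15 in WT and -0.10 in KO. Regions wider by 1.5-fold or more with IL-4 numbered 347 in WT (8.41%, against 10.2% of all shared regions) and 89 in KO (2.16% against 2.91%). Those narrower by as much numbered 107 in WT (2.59% against 2.7%) and 488 in KO (11.8% against 11.2%). KO over WT without IL-4 gave 361 wider (8.75% against 9.44%) and 107 narrower (2.59% against 2.82%). With IL-4 it gave 107 wider (2.59% against 2.64%) and 457 narrower (11.1% against 11.6%). All 8 shares lie near those of all shared regions, but the members are 4125 of those 6672, so part of the closeness is built in. Among the distal shared regions alone, 13.2% were wider by as much with IL-4 in WT and 4.12% in KO. Those narrower were 2.87% in WT and 10.1% in KO. KO over WT there gave 10.6% wider and 3.18% narrower without IL-4, and 2.71% and 12.5% with it.

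**Figure D2:**
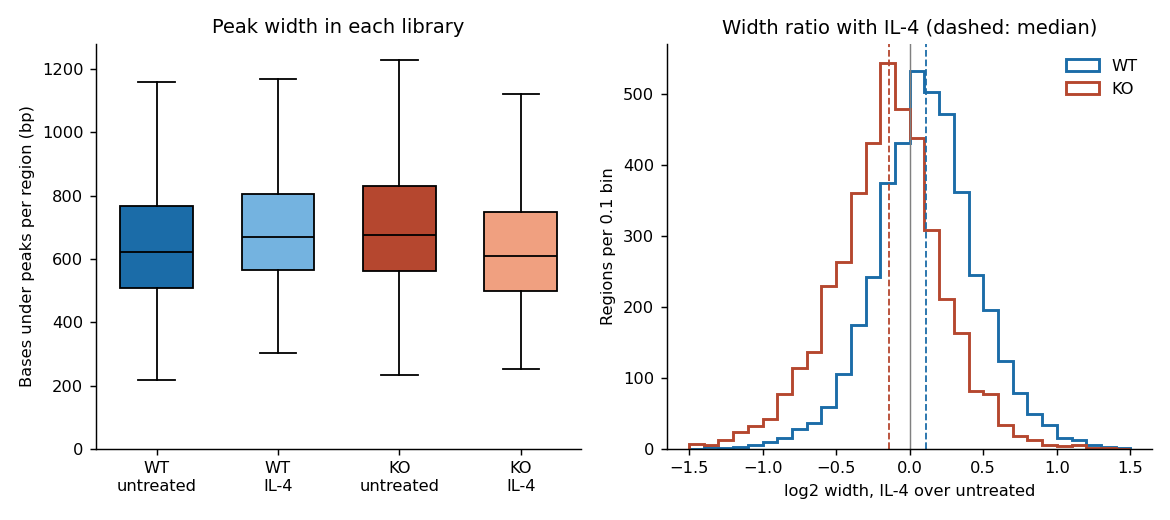
Left, bases under peaks per region in each library over the 4125 regions (box, quartiles and median; whiskers, 1.5 times the interquartile range; points beyond not drawn). Right, number of regions per bin of the log2 width ratio of IL-4 over untreated, with medians dashed at +0.11 in WT and -0.14 in KO; ratios beyond the axis are not drawn.

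The 5 regions of largest opposite change were at Txndc5, Nvl, Mon1a, Heatr3 and Morc3. At Txndc5, a protein disulfide isomerase gene of the endoplasmic reticulum, widths were 280 bp in untreated WT, 1124 bp in IL-4-treated WT, 991 bp in untreated KO and 583 bp in IL-4-treated KO. At Mon1a, a gene of vesicle traffic to the lysosome, they were 274, 680, 650 and 352 bp. In both, WT untreated was the narrowest library. At Heatr3 they were 658, 857, 931 and 290 bp, with KO IL-4 the narrowest.

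A merged region spanned a median of 798 bp, of which 489 bp lay under a peak of every list, and in 8 regions no base did. The widest were at Gm51572, where widths were 2586, 3778, 4137 and 2840 bp, at a shared edge of LOC108167694 and Gm20783, and at Duxf3, a gene of the Dux family, with 1845, 3278, 3513 and 2328 bp. Despite this width, Gm51572 ranked low, at 7.0, 13.7, 14.3 and 13.2. Sp4 and Rap2b, a Ras-like GTPase gene, followed. The narrowest were at Rps26, Purb, Zfp7, Aopep and the pair Cbln3 and Khnyn. Rps26, a ribosomal protein gene, had widths of 306, 327, 281 and 471 bp. Width and score went together, with Spearman's rho of 0.60 to 0.68 within a list.

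Genes of the basic machinery of the cell mostly had such a region more often than genes in general, against 22.3% of all protein-coding genes. The interval includes 22.3% for SWI/SNF subunits (19.1 to 63.9) and for V-ATPase, cathepsin and lysosomal genes (21.5 to 55.1). All genes include 1106 olfactory and 353 vomeronasal receptor genes, nearly all without a region. Of 30 gene lists, 20 had a share above 22.3% and 10 a share below. The lists hold 2992 different genes, 568 with a region, and 4311 genes with a region are in none. The counts describe the members and were not tested.

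Protein synthesis was well covered. Of 70 genes listed as translation initiation and elongation factors 38 had a region. Of 36 aminoacyl-tRNA synthetases it was 20, of 76 cytosolic ribosomal proteins 32 and of 78 mitochondrial ribosomal proteins 31. The list of factors also holds genes that act on them, such as Eif2ak3 and Eef2kmt, and are not factors themselves. The other ribosomal protein genes mostly had an edge peak as well: 37 cytosolic and 34 mitochondrial ones had an edge region in 1 to 3 lists, and 7 and 13 had none. Eif2ak3, the kinase PERK that slows initiation under stress of the endoplasmic reticulum, had scores of 621 in untreated WT, 302 in IL-4-treated WT, 566 in untreated KO and 363 in IL-4-treated KO. Rps21 had 373, 195, 319 and 277. Eif2ak3 stood at rank 96.8 or more among the regions in every library and Rps21 at 82.6 or more. They lead their lists: the median rank of the cytosolic ribosomal protein regions was 36.3, 41.7, 45.1 and 41.2 in the same order of libraries, below the middle.

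Protein folding and breakdown followed. Of 83 chaperones and chaperonins 44 had a region, of 48 proteasome subunits 20 and of 37 ubiquitin-conjugating enzymes 16. The chaperones ranked high, with a median rank of 75.8, 70.6, 62.8 and 63.0 in the order WT untreated, WT IL-4, KO untreated and KO IL-4, where 50 is the middle. Hsp90b1, the endoplasmic reticulum form of HSP90, had scores of 572, 346, 539 and 425. Hsph1, a cytosolic HSP110 chaperone, had 623, 258, 501 and 427, and Dnajb9, an HSP40 of the endoplasmic reticulum, 432, 356, 425 and 312. All 3 lay at rank 90 or more in every library.

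RNA and DNA machinery came next. Of 68 splicing factors 38 had a region, of 81 cell cycle and replication genes 43, of 83 genes of RNA polymerase II, general factors and Mediator 36, and of 20 SWI/SNF remodelling subunits 8. Hnrnpc, an RNA-binding protein of nuclear pre-mRNA, had scores of 546, 246, 432 and 293. Mcm4, of the replicative helicase, had 450, 270, 360 and 312 at an edge shared with Prkdc. Actl6a, a SWI/SNF subunit, had 667, 326, 467 and 410. Of 367 zinc finger genes named Zfp, 124 had a region, led by Zfp78. Clustered histone genes were at the background share, with 13 of 67, in 8 regions of low rank, and 43 others had an edge region in 1 to 3 lists.

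In metabolism, 39 of 85 oxidative phosphorylation subunits, 10 of 17 glycolysis genes and 13 of 35 V-ATPase, cathepsin and lysosomal genes had a region. Eno1, the enolase of glycolysis, had scores of 227, 145, 170 and 135, and Pgam1, the phosphoglycerate mutase before it in the pathway, 251, 158, 192 and 111. Both stood near the middle of the regions. Gapdh, often used as a reference gene, ranked low at 7.1, 6.9, 20.8 and 30.0, with scores of 98.8, 60.2, 111 and 93.1. Actb, another reference gene, had no edge peak in any list, and Tbp and Polr2a had one in 3 lists.

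Of 7 creatine genes only Gamt, which makes creatine from guanidinoacetate, had a region, at an edge shared with Dazap1. Its scores were 175, 104, 177 and 152 and its widths 1209, 1418, 1082 and 1149 bp. Its rank was 34.6, 40.3, 52.8 and 65.6, higher in both KO libraries than in both WT libraries. Gatm, the enzyme before it, had an edge peak in 3 lists and Ckb, the brain-type creatine kinase, in 2.

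Genes of macrophage receptors were mostly absent, whereas the share of lineage factors was above that of all genes. Of 28 macrophage receptors and secreted proteins 1 had a region, C1qc, a chain of complement C1q, and 17 others had an edge region in 1 to 3 lists. The count was 5 with edges of 2.5 kb or with the region's nearest base in place of its midpoint. The scores of C1qc were 136, 125, 72.5 and 72.5 and its ranks 18.8, 54.5, 4.9 and 14.2, with WT IL-4 the highest. Csf1r, the M-CSF receptor, had no edge peak in any list, though every list had a peak within its span or 1 kb of it. Of 20 macrophage lineage transcription factors 8 had a region (40.0%), with an interval of 19.1 to 63.9 that includes the 22.3% of all genes. Spi1, which encodes PU.1, and Cebpb had an edge peak in WT untreated alone.

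IL-4 response genes were few. The shares of the other signalling lists ran from 23.5% to 33.3%, with intervals that include the 22.3% of all genes. Of 30 IL-4 response genes 1 had a region, Atf3, a stress-induced factor, whose scores were 267, 144, 218 and 152 and whose rank was 64.9 to 67.4 over the libraries. Of the others 22 had no edge region in any list. Of 16 genes of the IL-4 receptor and STAT6 pathway 5 had one (31.2%), among them the kinases Jak1, Tyk2 and Jak2 and the feedback inhibitor Socs1. Stat6 had an edge peak in 3 lists and Il4ra, a chain of the receptor, in none. Of 35 interferon response genes 11 had a region (31.4%), of 36 NF-kB and inflammatory genes 12 (33.3%) and of 17 AP-1 and immediate early genes 4 (23.5%). The intervals were 11.0 to 58.7 for the IL-4 receptor and STAT6 pathway and 16.9 to 49.3 for interferon. They were 18.6 to 51.0 for NF-kB and 6.81 to 49.9 for AP-1. With equal list lengths the interferon count was 7. Irf1, an interferon-induced factor, was among the weakest, with scores of 91.6, 71.7, 50.4 and 60.3. Irak4, a kinase of Toll-like receptor signalling at an edge shared with Pus7l, was strong, at 363, 348, 317 and 296.

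Genes of other tissues were nearly without such regions. None of 1106 olfactory receptors, 17 neutrophil and erythroid markers or 18 neuron, hepatocyte and fibroblast markers had one. Single genes had one among 353 vomeronasal receptors (Vmn1r4), 49 keratins (Krt10) and 16 T and B cell markers (Cd3d). The Vmn1r4 region is shared with the nucleotidase gene Nt5c3, and those of Krt10 and Cd3d lay at the end of the gene. In the order WT untreated, WT IL-4, KO untreated and KO IL-4, Krt10 had low scores of 55.8, 55.7, 72.5 and 75.4. Cd3d had 139, 63.35, 53.2 and 74.2. The Cd3d score in WT untreated was at percentile 66.7 of its list, although Cd3d ranked at 19.8 or lower among the regions in every library.

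**Figure D3:**
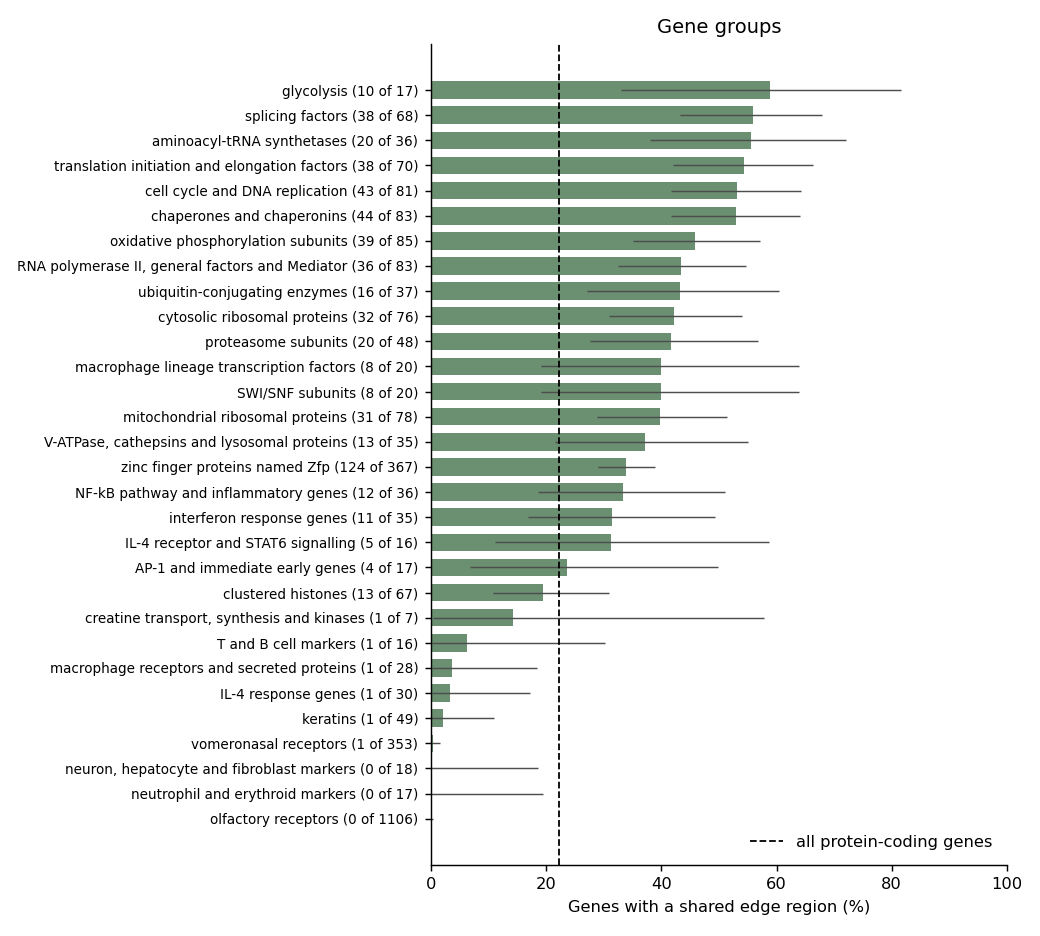
Percent of the genes of each of 30 lists with an edge region found in all 4 libraries (bars; numbers of genes in brackets; thin lines, exact 95% intervals for counting error), with the share of all protein-coding genes, 22.3%, dashed. Shares run from 10 of 17 for glycolysis to 0 of 1106 for olfactory receptors.

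Many regions touched the edges of more than 1 gene. Edges of 2 or more genes lay within 1 kb of the midpoint in 809 regions (19.6%; 18.4 to 20.9), of which 14 had 3. The share was 15.9% of edge regions in 3 lists, 13.8% (11.9 to 15.9) in 2 lists and 12.6% (10.9 to 14.5) in 1 list. In 343 regions the genes were divergent, with a median of 111 bp between their starts and 57.5 to 214.5 bp between the quartiles. In 151 more the starts lay on opposite strands with overlapping spans, and in 92 a start met an end.

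Divergent regions were wider and ranked higher than those at 1 start. Their median width was 679 bp in untreated WT, 707 bp in IL-4-treated WT, 733 bp in untreated KO and 650 bp in IL-4-treated KO, against 612, 667, 671 and 605 bp. Their median rank was 60.8, 59.6, 61.6 and 58.1, against 49.4, 50.0, 49.7 and 49.9. The order held in every library. The midpoint lay between the 2 starts in 147 of the 343 regions (42.9%). Peaks of a region reached both starts in 322, 311, 323 and 307 of the 343 in the same order. No test of these differences was made, since the same peaks had chosen the regions.

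The pairs with the highest lowest percentile at starts of known strand were led by Dcaf6 and Mpc2. At Dcaf6 and Mpc2, a ubiquitin ligase substrate receptor and a subunit of the mitochondrial pyruvate carrier, scores were 767, 456, 636 and 507. Pdcd10 and Serpini1, Bbip1 and Shoc2, Khsrp and Slc25a41, and Cep57 and Fam76b also had a percentile of 98.7 or more in every list. In 19 regions both genes were in the lists above. They include the heat shock pair Hspd1 and Hspe1, the mitochondrial chaperonin and its cochaperonin, with scores of 370, 234, 256 and 229. They also include 5 pairs of a mitochondrial ribosomal protein gene with a gene of another list.

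At Mrpl32 and Psma2, a mitochondrial ribosomal protein and a proteasome subunit, scores were 452 in untreated WT, 230 in IL-4-treated WT, 293 in untreated KO and 255 in IL-4-treated KO. At Pcna, the sliding clamp of DNA replication, and Cds2, of phospholipid synthesis, they were 485, 228, 379 and 251. Both lay at rank 85.5 or more in every library. At Mrps12 and Sars2, which both serve mitochondrial translation, they were 269, 210, 208 and 101, with KO IL-4 far down at rank 35.7. At Psmb9 and Tap1, which cut and carry peptides for antigen presentation, they were 189, 68.2, 158 and 110, with WT IL-4 lowest at rank 13.6. The stretches between these starts, printed above, are 204, 157, 135 and 225 bp long.

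The promoters at these regions were rich in G, C and CpG. A window of 300 bp, from 250 bp before to 50 bp after a start, was available for 17492 genes, of which 3844 had a region within 1 kb of that start. Median GC was 62.7% at the regions and 56.3% over all genes, and the CpG count over that expected from base composition was 0.83 against 0.58. Both sets were scanned on both strands for 12 motifs.

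The 3 motifs with the largest differences upward were the GC box, the CCAAT box and the ETS motif. A GC box (GGGCGG) was in 74.2% (72.8 to 75.6) of promoters at the regions and 46.3% (45.6 to 47.1) of all. A CCAAT box (CCAAT) was in 51.1% (49.5 to 52.7) against 39.2% (38.5 to 39.9), and an ETS match (CCGGAAG) in 23.8% (22.5 to 25.2) against 11.9% (11.4 to 12.4). GC-rich windows hold GC-rich motifs more often, and the part of base composition in these shares was not tested.

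Smaller shares went the same way for 5 more. NRF1 was in 2.60% against 1.33%, CRE (TGACGTCA) in 4.11% against 2.33%, the E-box (CACGTG) in 11.3% against 7.91%, YY1 (AAGATGGC) in 5.78% against 3.21% and ZNF143 in 1.09% against 0.44%. The TATA box (TATAAA) was less frequent, in 4.50% against 13.3%, as was AP-1 (TGANTCA), in 4.01% against 7.03%. PU.1 (GAGGAAGT), of a factor of macrophage identity, was in 3.33% (2.79 to 3.95) against 3.14% (2.89 to 3.41), with intervals that overlap. STAT6 (TTC and GAA with any 4 bases between), of the factor downstream of IL-4, was less frequent, in 5.15% (4.47 to 5.90) against 6.38% (6.02 to 6.75). A match is a run of letters and no evidence of binding, and motifs may overlap each other.

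Higher-ranked regions held more CCAAT boxes. With the regions split by their mean rank over the lists into 4 equal groups, a CCAAT box was in 42.1%, 44.8%, 53.3% and 62.6% of promoters from the lowest group to the highest. The GC box went from 69.0% to 79.3%, whereas ETS went from 25.1% to 23.1% and median GC from 60.7% to 63.7%. Divergent promoters held ETS matches in 30.2%, against 21.4% at regions of 1 start, and YY1 matches in 9.75% against 5.03%, with CCAAT boxes in 52.2% and 51.5%.

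**Figure D4:**
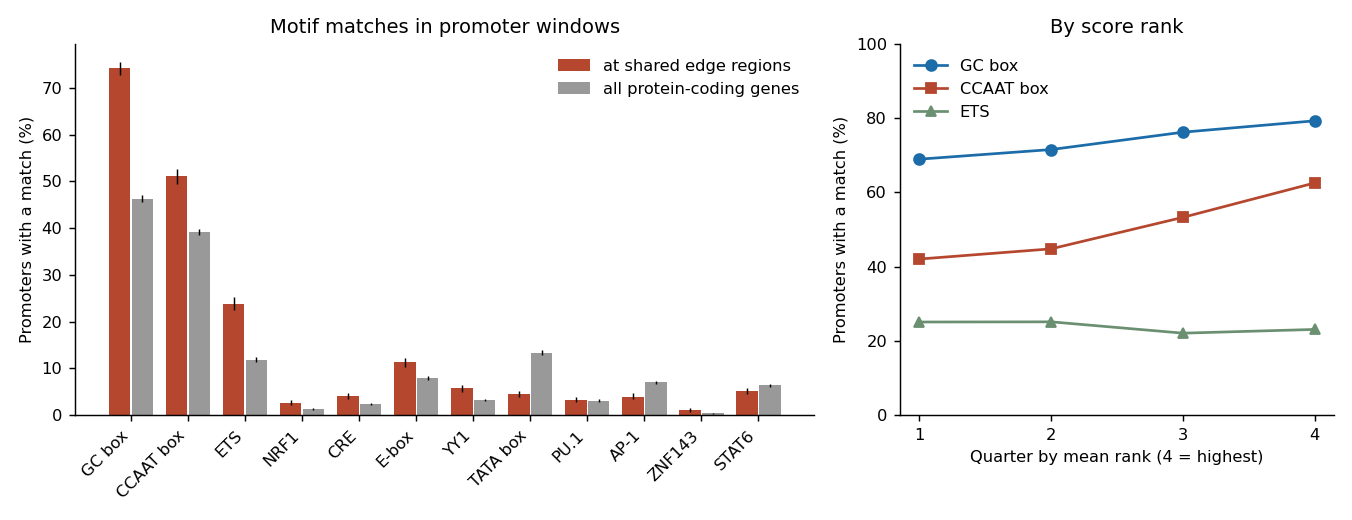
Left, percent of promoter windows with at least 1 match of each of 12 motifs at the regions (3844 promoters) and over all genes (17492), with exact 95% intervals for counting error. Right, the same percent for 3 motifs in 4 equal groups of regions by mean score rank, where the CCAAT box goes from 42.1% to 62.6%.

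Between libraries, the change of rank with IL-4 in one genotype said almost nothing of that in the other. Over the 4125 regions, Spearman's rho between the IL-4 change in WT and that in KO was 0.03, and that between the KO minus WT difference without and with IL-4 was 0.01, as descriptions. These pairs of changes have no library in common. A rank was higher by 25 points or more with IL-4 in 411 regions in WT and in 411 in KO, and in 55 (1.33%) in both. It was lower by as much in 421 and 410, and in 59 (1.43%) in both. The threshold and the genes named from it were chosen after the ranks had been seen, and lie outside the rule for named genes. The genes below are the extremes of 4125 regions and have no replicate.

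Socs1, the suppressor of cytokine signalling that IL-4 and STAT6 are known to induce, had the largest change upward by the smaller of its changes in the 2 genotypes. Its scores were 73.3 in untreated WT, 159.70 in IL-4-treated WT, 82.0 in untreated KO and 159.70 in IL-4-treated KO. Both IL-4 libraries were high and both untreated libraries low, with ranks of 2.4, 72.0, 7.9 and 68.6. Its width followed, at 954, 1707, 541 and 1391 bp. The region (chr16:10784863-10786660) held 2 peaks in WT untreated and in KO IL-4, whose bases were summed. Socs1 has no edge region found in all 4 lists when peaks must have a score of 100 or more, when the lists are brought to equal length, or when a reciprocal overlap of 50% is asked for.

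Tmem100, a membrane protein gene, had ranks of 18.3, 72.1, 12.6 and 66.4. Cebpa, a lineage factor of myeloid cells, had scores of 110, 123, 89.6 and 129 and ranks of 10.0, 53.2, 10.9 and 54.1. In both genes the IL-4 libraries ranked above the untreated ones, although the scores of Cebpa differ little, the median score of the regions being lower with IL-4. Nat8f1, Mff, Ercc5, the pair Serac1 and Gtf2h5 and the pair Mthfd2 and Mob1a complete the 8 of largest change upward.

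Downward, Abhd17a, a depalmitoylase gene, had scores of 314, 78.4, 190 and 64.9 and ranks of 76.1, 21.6, 57.9 and 9.0. Prdx3, a mitochondrial peroxiredoxin gene, had scores of 237, 63.4, 215 and 77.9, and Saysd1 had 288, 59.6, 188 and 73.8. In all 3 both untreated libraries ranked above both IL-4 libraries. The scores alone do not show this, since the median score of the regions was lower with IL-4. B4galt1, Nceh1, 1810037I17Rik, Kdm5c and Kat7 complete the 8. Promoters of the regions that ranked higher in both genotypes held a STAT6 match in 4.65% (43 promoters) and those that ranked lower in 7.02% (57), near the 5.15% of all.

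**Figure D5:**
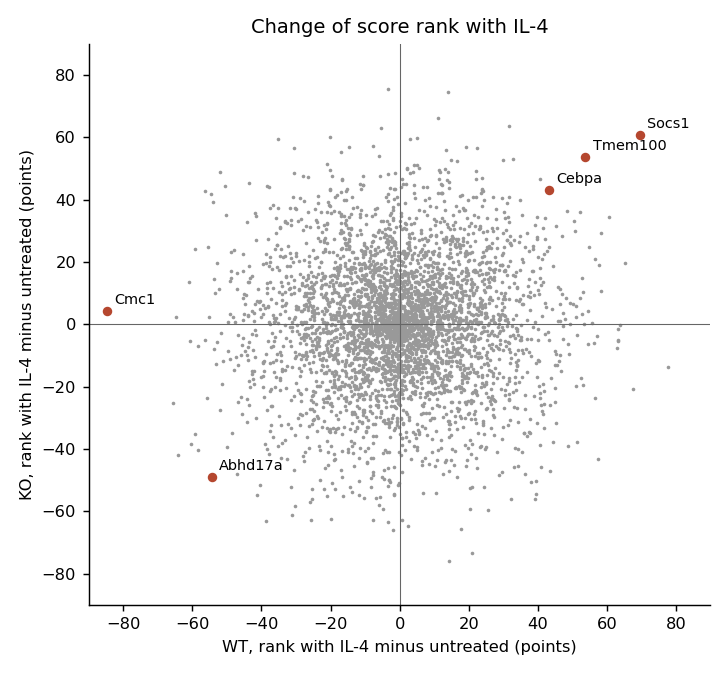
Change of score rank with IL-4 (points of 100) in WT (horizontal) and KO (vertical), 1 point per region, 4125 in all. The cloud has no slope (rho 0.03); Socs1, Tmem100 and Cebpa lie high in both, Abhd17a low in both, and Cmc1 low in WT alone.

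Between genotypes, 57 regions (1.38%) ranked higher in KO by 25 points or more under both treatments and 50 (1.21%) ranked lower, and the genes named here were likewise chosen after their ranks had been seen. Klf2, a transcription factor gene of quiescence in lymphocytes, had ranks of 10.6 in untreated WT, 6.5 in IL-4-treated WT, 51.3 in untreated KO and 44.2 in IL-4-treated KO. Lin7c, a scaffold gene, had 22.1, 3.9, 59.8 and 78.4. Both KO libraries were higher than both WT libraries. Among those lower in KO, Dync1li1, a dynein chain gene, had 58.1, 69.5, 5.5 and 28.5, and Sufu, an inhibitor of Hedgehog signalling, 44.5, 57.4, 10.1 and 23.1. At the shared edge of Taf10 and Tpp1, of a general transcription factor and a lysosomal peptidase, ranks were 29.5, 9.0, 77.0 and 53.3.

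In 4 of the 5 regions with the largest range of rank, 1 library stood apart. High and low refer here to rank within a list, although the scores are printed. Cmc1, a gene of mitochondrial complex IV assembly, had scores of 392 in untreated WT, 53.2 in IL-4-treated WT, 244 in untreated KO and 193 in IL-4-treated KO. Iws1, a gene of transcription elongation, had 308, 224, 290 and 64.9. The low library was WT IL-4 at Cmc1 and KO IL-4 at Iws1. Maea, a ubiquitin ligase subunit gene, was high in KO IL-4 alone, with 124, 64.8, 94.6 and 233. Med16, a Mediator subunit gene, was low in WT untreated alone, with 69.5, 183, 232 and 137. The other was Tmem167b, which with 188, 234, 90.9 and 77.1, was higher in both WT libraries.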

How the data were processed

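ATAC-seq peak lists of 4 libraries, 1 per group, were used as deposited. The submitters' processing notes name the build mm10 and the tools MACS 1.4.2, Bowtie2 2.2.5 and HOMER, with no roles or parameters. Every peak carries a score deposited by the authors, whose unit no header states, so it served to rank and select peaks within a list. Scores printed side by side for the libraries describe a region, and their size is no measure of a difference between libraries. The depth of sequencing is unknown.

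Peaks overlapping by 1 bp or more were merged. Genes were 21887 protein-coding genes of RefSeq, GRCm38.p6, the same coordinates as mm10; strand and promoter windows were available for 17492. For a gene with several windows, the one nearest the region was used at the regions and the one nearest the end of the span over all genes. Where a region held several peaks of a list, the highest score and the summed width were taken. Of 30 gene lists, 2 entries (Mx2 and Ighm) were not matched. The members and lists were chosen with earlier results of these data known.

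Genes named are the 10 regions with the highest lowest percentile, up to 4 such genes of a list, the 8 such shared edges and those with 2 list genes, the 5 widest and 5 narrowest, the 5 with the largest range of rank, the 5 with the largest opposite width change, a fixed set of 14 genes and the regions at the 1 kb limit; examples of these are printed, and some genes that the rule names are left out. With 1 library per group no p-value was computed. The 7 alternatives are listed in the closing section. The overlap and distance code was tested on simulated data. The software was Matplotlib 3.10.9, SciPy 1.17.1, pandas 2.3.3 and NumPy 2.4.6 under Python 3.11.15.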

Additional observations from a re-analysis of the deposited data

Results flagged for a closer look

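The width of peaks with IL-4 moved opposite ways in the 2 genotypes, with a median log2 ratio of 0.11 in WT and -0.14 in KO. The same 4 libraries read by treatment gave KO over WT 0.12 without IL-4 and -0.13 with it. Each value rests on 1 library a side, and the difference was not tested. The 5 regions of largest opposite change with IL-4 were singled out for the same reason, also without a test. The log2 ratio was 2.01 in WT and -0.77 in KO at Txndc5, 0.80 and -1.43 at Nvl, 1.31 and -0.88 at Mon1a, 0.38 and -1.68 at Heatr3, and 0.998 and -0.99 at Morc3.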

How the results depend on the processing

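The 7 alternatives were a score of 100 or more, a reciprocal overlap of 50%, equal list lengths (each list cut to its best 9930 peaks), autosomes alone, an edge of 500 bp or of 2.5 kb, and the region's nearest base in place of its midpoint. No value that could be computed changed sign, the width ratios included. Socs1 was no longer a shared edge region with equal list lengths, a score of 100 or more or a reciprocal overlap of 50%, and Cebpa with a score of 100 or more.

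A score of 100 or more left 2067 regions, 2507 genes and 266 list genes, raised the edge share of shared regions to 73.8%, the share with edges of 2 or more genes to 21.4%, the GC box to 76.8% and the CCAAT box to 57.0%, and moved the median percentile to 63.8 (WT IL-4), 78.3 (KO untreated) and 66.6 (KO IL-4). The median log2 width ratio was then -0.11 for IL-4 in KO and -0.11 for KO over WT with IL-4. Equal list lengths gave an edge share of 65.7% and median percentiles of 74.6 in untreated WT, 73.3 in IL-4-treated WT, 74.2 in untreated KO and 73.0 in IL-4-treated KO, so that the gap between lists narrowed. The edge share was 58.3% at 500 bp, 66.6% at 2.5 kb and 63.4% by the nearest base, and the share with edges of 2 or more genes was 16.9% and 24.3% at 500 bp and 2.5 kb.

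The counts of 23 of 30 gene lists moved by over 1.5 times with a score of 100 or more, and of 0 to 5 under the other alternatives; that of macrophage receptors went from 1 to 5 genes with edges of 2.5 kb and by the nearest base. No paired analysis was possible because each group has 1 library and no test was made, and no library could be left out, since a peak in each is part of the rule. Without replicates or read depth, a peak missing from a list cannot be told apart from a site read too shallowly.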
